A study of Bos taurus with 31 samples.

Results

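MCFD2 and the genes of cargo export from the endoplasmic reticulum were followed in liver biopsies of 31 lactating German Holstein cows. The set held 10 genes, picked by symbol from the raw gene count table: MCFD2 and LMAN1, which form a cargo receptor, the cargo receptor SURF4, the COPII coat genes SEC23A, SEC23B, SEC24A, SEC24B, SEC24C and SEC24D, and SAR1B, the GTPase that starts coat assembly. A row was found for 9 of the 10 among 24616 genes, and SURF4 is named only. All 9 passed the filter on low counts, which left 15916 genes for testing. MCFD2 was chosen for its read counts in GLY-exposed and control cows on high concentrate, so its values in every comparison that uses those cows are a description without a test. The other members were chosen for their function.

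The cows received a total mixed ration for 16 weeks, either contaminated with residues of a glyphosate formulation through treated peas, wheat grain and straw (GLY) or a control ration (CON). Each was fed with a high (HC, 60% of dry matter) or a low (LC, 30%) concentrate feed proportion. This gave CON_HC (n = 8), GLY_HC (n = 8), CON_LC (n = 8) and GLY_LC (n = 7, after the loss of the samples of 1 cow), with liver RNA from the end of the feeding period. Every cow was a separate animal with 1 sequenced sample, and the study's earlier biopsies of the same cows are not in these data. Feed intake was free, so the glyphosate dose was set by the ration and by what each cow ate. The compared quantity is the normalized read count, in CPM, a gene's reads scaled to a common library total after correction by the trimmed mean of M-values (TMM). Genes count as called where edgeR's quasi-likelihood test gave an unadjusted p below 0.05 and a Benjamini-Hochberg adjusted p below 0.1.

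Secretory proteins leave the endoplasmic reticulum in vesicles that are covered by the COPII coat. SAR1 in its GTP-bound form recruits SEC23 and SEC24, SEC24 picks cargo, and receptors such as LMAN1 link soluble cargo in the lumen to the coat. MCFD2 is the small calcium-binding partner of LMAN1, and together they carry the coagulation factors V and VIII, whose combined deficiency in humans follows from loss of either subunit. Hepatocytes secrete most plasma proteins and depend on this route, which SAR1B and SURF4 also serve for lipoproteins. MCFD2 was also a target of the study's qRT-PCR, whose values were not analysed here. From its read counts the study listed MCFD2 as lower in GLY_HC than in CON_HC, and it said that such changes could be false positives. In the qRT-PCR the study also reported MCFD2 as lower in GLY_HC, but not significantly. It described the changes as alike in direction and magnitude between both methods. For MCFD2 it also reported no significant correlation between the assay and the read counts. Its primers, given 5′ to 3′ because they are the designed sequences that tie a second assay to this gene, each have 20 bases, of which 11 (55%) are G or C:
MCFD2 forward: cagcatgggcctggataaga
MCFD2 reverse: cttcgttcattggtgcctgc

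MCFD2 (ENSBTAG00000003358) was read at 1908 to 7077 raw counts per cow. In CON_HC its lowest, median and highest normalized read counts were 166, 191 and 222 CPM. In GLY_HC they were 137, 156 and 169 CPM. All 8 GLY_HC cows lay below the median of CON_HC, 5 of them below its lowest cow, and 7 of 8 CON_HC cows lay above the highest GLY_HC cow, so that the ranges overlapped only through the lowest CON_HC cow. The means were 192 ± 19.4 CPM (SD, n = 8) in CON_HC and 156 ± 11.8 CPM (SD, n = 8) in GLY_HC, a log2 fold change (GLY against CON) of −0.30 with a standard error of 0.09. This difference chose the gene and is given without a test.

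On low concentrate the order was the opposite. MCFD2 ran from 146 over a median of 166 to 197 CPM in CON_LC and from 155 over 197 to 267 CPM in GLY_LC. Of the 7 GLY_LC cows, 5 lay above the median of CON_LC and 3 above its highest cow. The means were 171 ± 17.1 CPM (SD, n = 8) and 194 ± 38.9 CPM (SD, n = 7), and the log2 fold change was 0.19 (95% interval −0.0047 to 0.38). These cows had no part in the choice of the gene, and the difference did not pass the test (edgeR unadjusted p = 0.0556, adjusted p = 0.904). The highest GLY_LC value came from cow 147, without which the log2 fold change was 0.10 (95% interval −0.079 to 0.28).

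By their means the groups stood in the order GLY_LC, CON_HC, CON_LC, GLY_HC, and the ranges of each neighbouring pair overlapped. As a description, MCFD2 was 0.17 higher on the log2 scale in CON_HC than in CON_LC and its log2 fold change of GLY_HC against GLY_LC was −0.32. The difference between the glyphosate effects on high and on low concentrate (the interaction) was −0.48 with a standard error of 0.13, and both arms were opposite in sign. This value includes the difference that chose the gene, so it is given without a test. Without GLY_LC cow 147 the interaction was −0.38. In bulk liver, fewer cells of a type and less RNA per cell cannot be told apart.

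**Figure D1:**
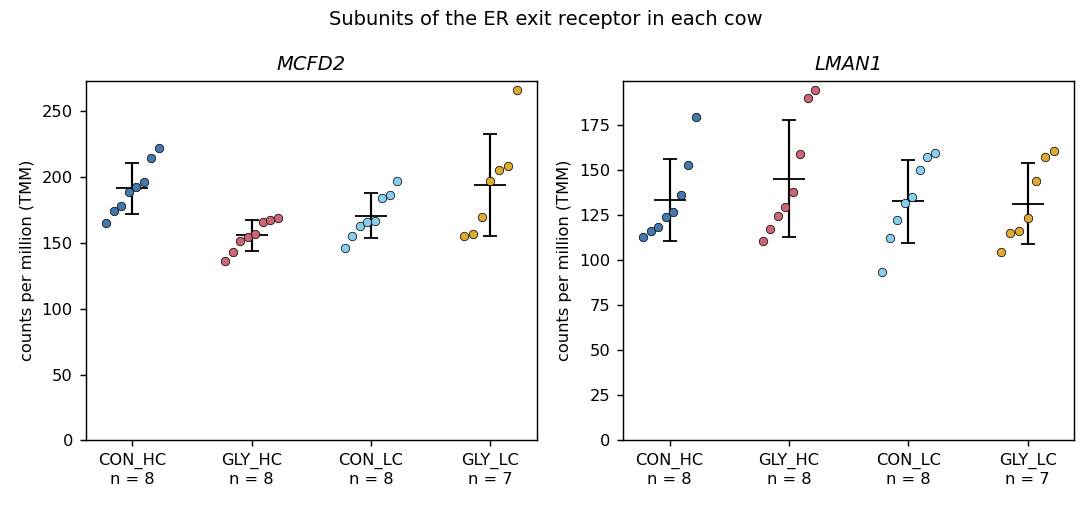
Normalized read counts (CPM, vertical axis from 0) of MCFD2 (left) and LMAN1 (right) in each of the 31 cows (points) by feeding group, with the mean and SD as bars. For MCFD2 the 8 GLY_HC cows sit between 137 and 169 CPM, below the CON_HC median of 191 CPM, whereas the LMAN1 groups overlap widely.

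LMAN1 (ENSBTAG00000006833), the lectin that holds MCFD2 in the receptor, did not follow its partner. Its lowest, median and highest counts were 113, 125 and 179 CPM in CON_HC, and 111, 133 and 194 CPM in GLY_HC. On low concentrate they were 93.1, 133 and 159 CPM in CON_LC against 104, 123 and 160 CPM in GLY_LC. The 4 ranges overlapped over most of their width. The log2 fold change between GLY and CON was 0.12 (95% interval −0.14 to 0.39) on high concentrate and −0.01 (95% interval −0.29 to 0.26) on low concentrate, and neither passed the edgeR test (adjusted p = 1 in both after rounding). On high concentrate it was 0.058 without GLY_HC cow 32 and 0.20 without CON_HC cow 134, and on low concentrate its sign turned without any 1 of 7 cows, most without GLY_LC cow 912 (0.040).

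The receptor's cargo was read alongside. F5, which encodes coagulation factor V, had means of 663 ± 165 CPM in CON_HC, 682 ± 182 in GLY_HC and 567 ± 146 in CON_LC (SD, n = 8 each) and 620 ± 115 in GLY_LC (SD, n = 7). Its log2 fold change of GLY against CON was 0.04 (95% interval −0.31 to 0.39) on high and 0.13 (95% interval −0.24 to 0.50) on low concentrate, and on high concentrate it was −0.055 without GLY_HC cow 32. F8, for coagulation factor VIII, which sinusoidal endothelial cells rather than hepatocytes make, had group means between 20.5 and 22.1 CPM. Its log2 fold changes were −0.06 (95% interval −0.27 to 0.14) and 0.11 (95% interval −0.10 to 0.32). Neither cargo gene passed the edgeR test at either concentrate level, with unadjusted p between 0.309 and 0.822.

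Of the 8 members chosen by function, 0 were called between GLY_HC and CON_HC by edgeR, where 0% of the 15916 genes tested were called, and 0 by DESeq2, either on all cows (0 genes called) or on these 2 groups alone (3 genes, 0.0188%). At an unadjusted p below 0.05 they numbered 2, SEC23A and SEC24B, against 2.92% of all genes. Their log2 fold changes ran from −0.17 to 0.44 with a median of 0.13, and 7 of 8 were above 0, as were 51.5% of all genes (median 0.01). MCFD2 was lower in GLY_HC, and of the other members only SEC24B shared that direction.

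Between GLY_LC and CON_LC, 0 of the 9 members with a row were called by edgeR or DESeq2. Over all genes edgeR called 0.0628%, DESeq2 called 0.0251% on all cows and 0.0126% on these 2 groups alone. None of the 9 had an unadjusted p below 0.05, which 5.65% of all genes had. Their log2 fold changes ran from −0.05 to 0.35 with a median of 0.08, and 6 of 9 were above 0, as were 49.4% of all genes.

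**Figure D2:**
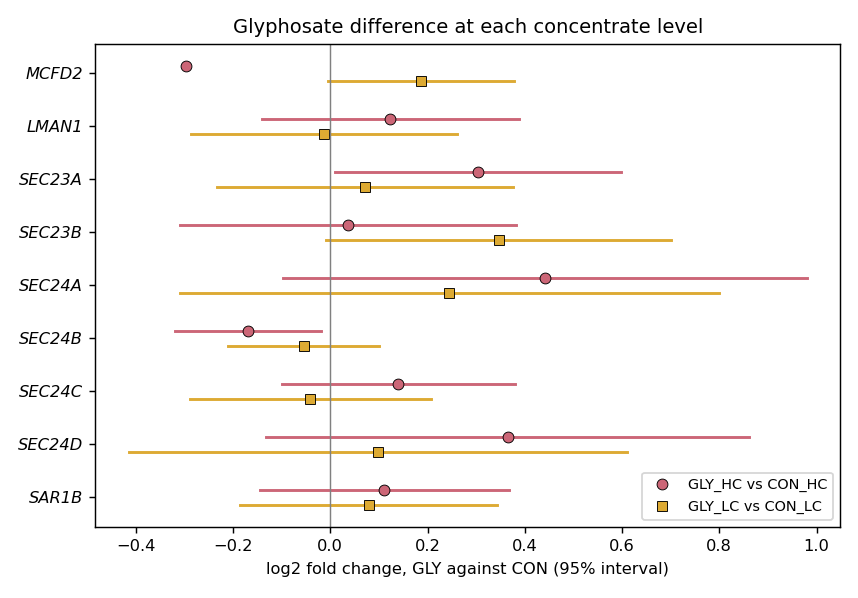
Log2 fold change of GLY against CON (horizontal axis) for 9 members (rows), on high concentrate (circles) and on low concentrate (squares), from edgeR on all 31 cows, with 95% intervals as lines. MCFD2 on high concentrate, at −0.30, has no interval because this comparison chose it, and SEC24A lies at 0.44.

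SEC23 is the inner coat subunit that speeds up GTP hydrolysis by SAR1, and mammals carry a pair of paralogs. SEC23A (ENSBTAG00000003708) had lowest, median and highest counts of 44.0, 52.9 and 75.1 CPM in CON_HC and 52.0, 61.6 and 94.5 CPM in GLY_HC. On low concentrate they were 42.7, 57.6 and 77.3 CPM in CON_LC and 42.0, 60.1 and 88.5 CPM in GLY_LC. On high concentrate 6 of 8 GLY cows lay above the CON median, and 3 CON cows lay below the lowest GLY cow, yet the ranges overlapped. The log2 fold change there was 0.30 (95% interval 0.01 to 0.60), which edgeR did not call (unadjusted p = 0.0439, adjusted p = 1). Without GLY_HC cow 32, the highest of its group, it was 0.22 (95% interval −0.066 to 0.52). On low concentrate it was 0.07 (95% interval −0.23 to 0.38), and −0.033 without GLY_LC cow 102.

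SEC23B (ENSBTAG00000018295) varied little among the cows of 3 groups, with 16.2 to 23.5 CPM in CON_HC, 16.7 to 22.4 in GLY_HC and 17.8 to 21.6 in CON_LC. In GLY_LC the lowest, median and highest counts were 17.3, 18.2 and 56.0 CPM, and the next highest cow had 24.2 CPM. The highest value belonged to cow 912. The log2 fold change of GLY_LC against CON_LC was 0.35 (95% interval −0.008 to 0.70, edgeR adjusted p = 0.904) and became −0.0041 (95% interval −0.18 to 0.17) without this cow.

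In the same cow, genes of the intestinal epithelium were read at levels that no other cow approached. FABP2, the intestinal fatty acid-binding protein, had 206 CPM in cow 912 and at most 0.163 CPM elsewhere, and BCO1, the carotene-cleaving enzyme, had 46.8 against at most 0.11 CPM. The summed level of the 5 measured genes of that list was 319 CPM in cow 912 and at most 2.05 CPM in any other GLY_LC cow. Summed hepatocyte markers (8 of 8 measured) were lowest of GLY_LC in cow 912, at 106140 CPM against a group median of 175620 CPM. Their part in the SEC23B value was not tested. This list was written with earlier results of these data known.

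SEC24 is the cargo-binding subunit, and its 4 paralogs recognise different export signals. They differed in spread. The highest cow of a group had up to 3.21 times the count of the lowest for SEC24A and up to 3.62 times for SEC24D, both in CON_HC, against at most 1.49 times for SEC24B and 1.77 times for SEC24C.

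SEC24A (ENSBTAG00000018322) had lowest, median and highest counts of 41.7, 46.0 and 134 CPM in CON_HC and 43.7, 67.9 and 135 CPM in GLY_HC. On low concentrate they were 45.4, 50.9 and 83.9 CPM in CON_LC and 37.6, 61.6 and 111 CPM in GLY_LC. In CON_HC a single cow, 134, stood far above the other 7, the next of which had 55.4 CPM, while in GLY_HC the values spread over the whole range. Of the 8 GLY_HC cows, 7 lay above the CON_HC median. The log2 fold change was 0.44 (95% interval −0.097 to 0.98), not called by edgeR (unadjusted p = 0.105, adjusted p = 1). Without CON_HC cow 134 it was 0.75 (95% interval 0.27 to 1.22) and without GLY_HC cow 32 it was 0.29 (95% interval −0.24 to 0.83). SEC24A was not called in either case. On low concentrate it was 0.25 (95% interval −0.31 to 0.80), and 0.09 without GLY_LC cow 102.

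SEC24D (ENSBTAG00000003619) had the same highest cows as SEC24A on high concentrate, 134 and 32, but not on low concentrate. Lowest, median and highest counts were 19.3, 26.6 and 69.9 CPM in CON_HC, where cow 134 was again the highest and the next had 30.7 CPM. In GLY_HC they were 24.4, 43.4 and 59.4 CPM. The low concentrate groups had 24.4, 36.4 and 42.2 CPM in CON_LC and 23.4, 29.7 and 66.6 CPM in GLY_LC, with cow 912 highest. The log2 fold change of GLY_HC against CON_HC was 0.36 (95% interval −0.13 to 0.86, edgeR adjusted p = 1). It was 0.65 (95% interval 0.22 to 1.08) without cow 134 and 0.27 (95% interval −0.24 to 0.77) without GLY_HC cow 32, not called in either case. Between GLY_LC and CON_LC it was 0.10 (95% interval −0.41 to 0.61) and changed to −0.099 without cow 912.

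Besides MCFD2, SEC24B (ENSBTAG00000010945) was the only member with a lower value in GLY_HC than in CON_HC. Cow by cow it did not follow MCFD2, with a Pearson r of −0.11 over the 31 cows after removal of group means. The lowest, median and highest counts of SEC24B were 27.3, 33.6 and 36.4 CPM in CON_HC and 25.0, 29.6 and 31.1 CPM in GLY_HC. All 8 GLY_HC cows lay below the CON_HC median and 5 CON_HC cows lay above the highest GLY_HC cow. The log2 fold change was −0.17 (95% interval −0.32 to −0.019), which edgeR did not call (unadjusted p = 0.0285, adjusted p = 1). On low concentrate the counts were 28.9, 32.7 and 36.9 CPM in CON_LC and 26.0, 30.7 and 38.7 CPM in GLY_LC, a log2 fold change of −0.05 (95% interval −0.21 to 0.10). Over both concentrate levels it was −0.11 (95% interval −0.22 to −0.0057, edgeR unadjusted p = 0.0398, adjusted p = 1).

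SEC24C (ENSBTAG00000002791) had group medians of 79.3 CPM in CON_HC, 83.2 in GLY_HC, 85.6 in CON_LC and 76.5 in GLY_LC, and all cows lay between 61.8 and 114 CPM. Its log2 fold change of GLY against CON was 0.14 (95% interval −0.10 to 0.38) on high and −0.04 (95% interval −0.29 to 0.21) on low concentrate. Without CON_HC cow 134 the value for SEC24C on high concentrate was 0.22, and on low concentrate it was −0.14 without GLY_LC cow 102 and 0.0023 without cow 42.

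SAR1B (ENSBTAG00000021226), the SAR1 paralog tied to chylomicron and lipoprotein export, had medians of 41.2 CPM in CON_HC, 42.0 in GLY_HC, 40.9 in CON_LC and 42.3 in GLY_LC. The medians lay closer together than the cows of any group, and all cows were between 33.1 and 63.3 CPM. The log2 fold changes were 0.11 (95% interval −0.15 to 0.37) on high and 0.08 (95% interval −0.19 to 0.34) on low concentrate. On high concentrate SAR1B stood at 0.033 without GLY_HC cow 32 and at 0.20 without CON_HC cow 134. In the RefSeq gene table of the later assembly ARS-UCD2.0, SAR1B and SEC24A are neighbouring coding genes.

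**Figure D3:**
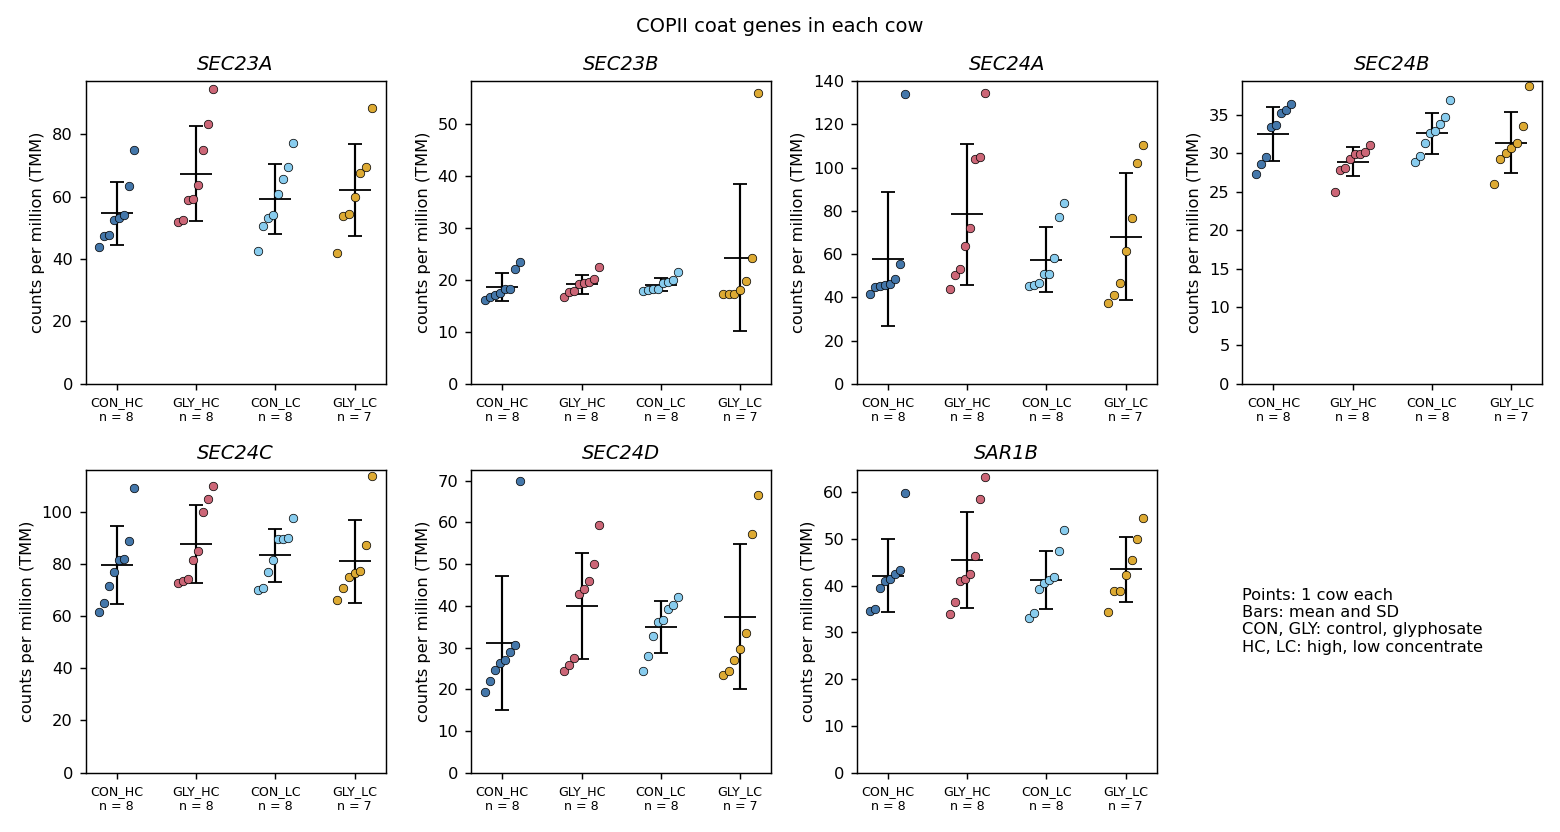
Normalized read counts (CPM, vertical axes from 0) of the 7 COPII coat genes with a row, in each cow (points) by feeding group, with the mean and SD as bars. Single cows stand apart in SEC24A and SEC24D (CON_HC, up to 134 and 69.9 CPM) and in SEC23B (GLY_LC, 56.0 CPM).

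The concentrate feed proportion was tested in 3 ways. Over both treatments (HC against LC) edgeR called 1.45% of all genes, but 0 of the 8 members chosen by function, and DESeq2 called 2.73% and also 0 of these members. Their log2 fold changes lay between −0.19 (SEC23B) and 0.10 (SEC24A) with a median of 0.01, and none had an unadjusted p below 0.05, against 13.7% of all genes. SEC23B in this comparison was −0.0143 without GLY_LC cow 912, and SEC24A was −0.040 without CON_HC cow 134. Within CON cows 0 of 8 were called by edgeR, with 0% of all genes called and 5.96% at an unadjusted p below 0.05, and 0 by DESeq2 (0.17% of all genes on all cows, 0.503% on these 2 groups alone). No member of the 8 had an unadjusted p below 0.05 there. Within GLY cows edgeR called 0.201% of all genes and 0 of 8 members, and DESeq2 0 of 8 (0.898% of all genes on all cows, 0.559% on these 2 groups alone). None of the 8 had an unadjusted p below 0.05, against 12.5% of all genes, and their log2 fold changes of GLY_HC against GLY_LC ran from −0.34 (SEC23B) to 0.20 (SEC24A). Without GLY_LC cow 912 they were 0.0083 for SEC23B and 0.33 for SEC24A, and without GLY_HC cow 32 that of SEC24A was 0.056.

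The difference between the glyphosate effects at the 2 concentrate levels passed the test in 0 of the 8 members chosen by function, by edgeR or DESeq2. For the interaction edgeR called 0% of all genes, with 4.21% at an unadjusted p below 0.05, and DESeq2 called 0.00628%. The members' interaction values lay between −0.31 (SEC23B) and 0.27 (SEC24D), and their lowest unadjusted p was 0.211. Without GLY_LC cow 912 the interaction was 0.042 for SEC23B, with its sign turned, and 0.47 for SEC24D. Without CON_HC cow 134 that of SEC24D was 0.55 and without GLY_HC cow 32 it was 0.17. For glyphosate over both concentrate levels edgeR called 0% of all genes and DESeq2 0.00628%, with 0 of 8 members by either tool. At an unadjusted p below 0.05 edgeR had 1 of 8, SEC24B, against 3.92% of all genes. In this comparison 7 of 8 members had a log2 fold change above 0, as had 51.5% of all genes, the highest being SEC24A at 0.35 (95% interval −0.035 to 0.73).

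The same cows stood high for most of the members. CON_HC cow 134 had the highest count of its group for 7 of the 8 members chosen by function, with a median of 0.51 above the group medians on the log2 scale. GLY_HC cow 32 was highest for 6 of 8, CON_LC cow 60 for 5 and GLY_LC cow 102 for 4. GLY_LC cow 42 was lowest for 4. MCFD2 went along in some of these cows and not in others. It was 0.22 above its group median on the log2 scale in cow 134, the highest of CON_HC, and 0.34 below in cow 42, the lowest of GLY_LC. In cow 32 it was 0.04 and in cow 102 0.21 below its group median.

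**Figure D4:**
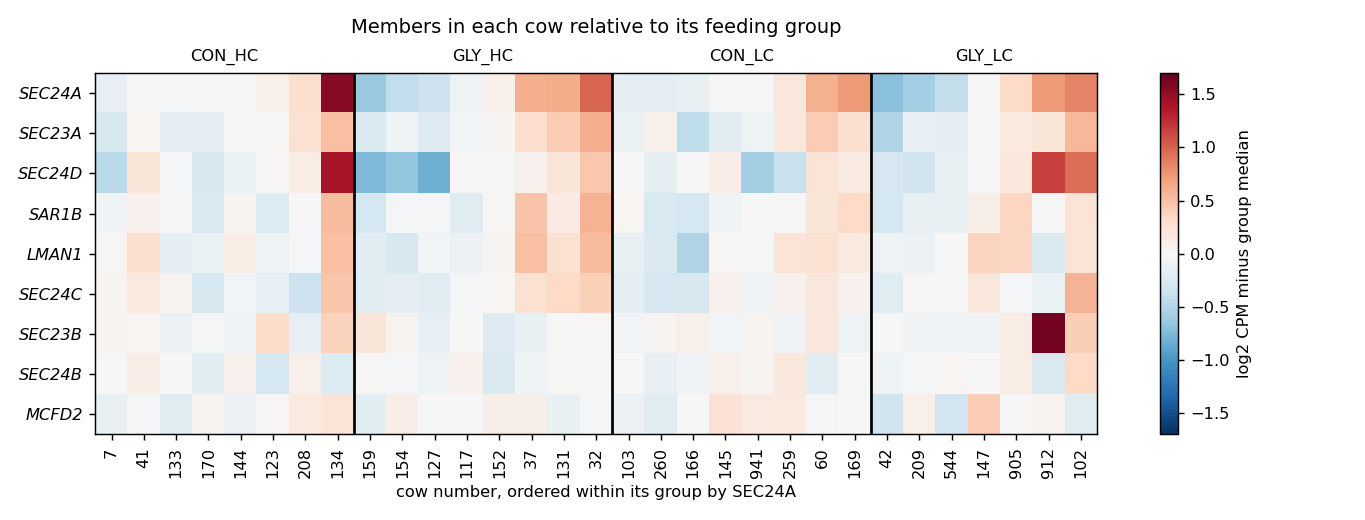
Log2 CPM of each member (rows) minus its group median in each of the 31 cows (columns, labelled by cow number and ordered within their feeding group by SEC24A), with red above and blue below the median. Cows 134, 32 and 102, at the right end of CON_HC, GLY_HC and GLY_LC, are red for most coat genes. The rows of MCFD2 and SEC24B, and that of SEC23B outside cow 912, are pale.

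With the group means removed, 6 members were positively correlated with each other over the 31 cows: LMAN1, SEC23A, SEC24A, SEC24C, SEC24D and SAR1B. Their 15 pairs had Pearson r between 0.43 and 0.89 with a median of 0.74, and Spearman rho between 0.42 and 0.87. Without the 2 cows farthest from the median of the first gene of each pair, r ran from 0.23 to 0.86. The weakest pair was LMAN1 with SEC24D (r = 0.43, and 0.23 without 2 cows). The set was picked out after its values were seen. The strongest pairs were SEC23A with SEC24A (r = 0.89, rho = 0.87), SEC24A with SEC24D (r = 0.88, rho = 0.81) and LMAN1 with SAR1B (r = 0.86, rho = 0.86).

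MCFD2, SEC23B and SEC24B were outside this set. MCFD2 had r between −0.11 and 0.30 with the other 8 members (median 0.18), and with its partner LMAN1 it had r = 0.30 and rho = 0.25 (r = 0.19 without the 2 farthest cows, GLY_LC 147 and 42). With SEC24A it had r = 0.26 and rho = 0.34 (r = 0.24 without these cows). SEC23B reached r = 0.55 with SEC24D, above the lowest r inside the set. Without the 2 cows farthest for SEC23B, GLY_LC 912 and CON_HC 134, this r was 0.29. All these correlations are descriptions over cows for which no batch is labelled. The r of each member with the log2 total of reads lay between −0.25 and 0.04.

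**Figure D5:**
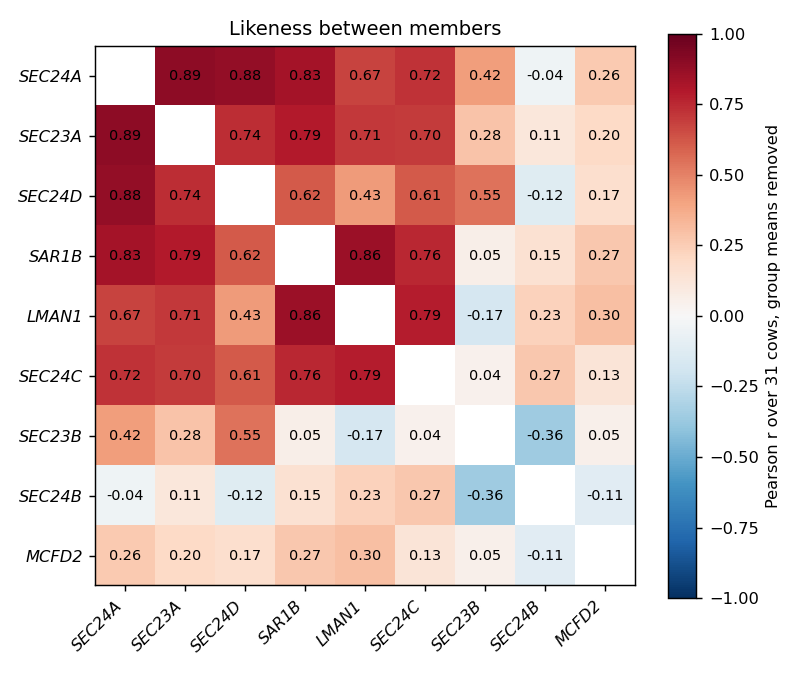
Pearson r between members over the 31 cows after removal of group means (colour scale from −1 to 1, value in each cell). The block of 6 members from SEC24A to SEC24C holds r from 0.43 to 0.89, and the MCFD2 row holds r from −0.11 to 0.30.

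Among 11834 genes with a mean of at least 1 CPM, the patterns most like that of MCFD2 over the 31 cows, group means removed, were for genes with a symbol those of HBS1L (r = 0.68), CLCN2 (r = 0.67), FAM114A2 (r = 0.66), COPS8 (r = 0.65) and DPM1 (r = 0.63). HBS1L acts in the rescue of stalled ribosomes, CLCN2 is a chloride channel, COPS8 is a subunit of the COP9 signalosome, and DPM1 makes the mannose donor dolichol phosphate mannose. Without the 2 farthest cows their r lay between 0.51 and 0.74. Of the members, LMAN1 ranked highest, at place 1349 of 11834, and SEC24B lowest, at 7967. Genes on the transport, cargo and control lists described below reached both higher and lower places. They ran from TMED7 (r = 0.53, place 70) and ERGIC3 (r = 0.48, place 153) down to CREB3L1 (r = −0.36, place 10890). Of all 11834 genes, the lowest r belonged to ASAP1 (−0.77), the macrophage mannose receptor MRC1 (−0.76) and ARAP2 (−0.74).

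For SEC24A and LMAN1, places among the 11834 genes were read only for members and listed genes, most of them of the secretory pathway. The r with these genes ran down to −0.49 (CTSZ) for SEC24A and −0.55 (CNIH4) for LMAN1. With SEC24A, the COPI coat genes ARCN1 (r = 0.92) and COPA (r = 0.91) ranked at places 1 and 2 of 11834, COPB1 (r = 0.90) at place 6 and the vesicle tether USO1 (r = 0.90) at place 7. With LMAN1, SAR1B (r = 0.86) ranked at place 1 and F5, the cargo of the receptor, at place 6 (r = 0.84, rho = 0.84). MCFD2, the other subunit, had r = 0.21 with F5 (rho = 0.14).

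The rest of the pathway was read from lists of other genes. Over all genes, 51.5% and 49.4% had a log2 fold change of GLY against CON above 0 on high and low concentrate. In these comparisons edgeR called 0% and 0.0628% of all genes. Of 12 tested COPII coat, organiser and GTPase genes, 0 were called in either glyphosate comparison, and 8 and 9 of 12 had a log2 fold change above 0 on high and low concentrate (medians 0.08 and 0.07, against 0.01 and −0.0024 over all genes). The largest difference was that of SEC16A, the scaffold of exit sites, with 51.8 ± 15.5 CPM in CON_HC and 74.9 ± 23.8 CPM in GLY_HC (SD, n = 8 each). Its log2 fold change was 0.53 (95% interval 0.14 to 0.93, edgeR unadjusted p = 0.00962, adjusted p = 1). SEC31B was lowest at −0.095. On low concentrate TFG, which organises exit sites, stood at 0.25 and at 0.0053 without GLY_LC cow 912, and SEC16B at −0.17.

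Of 16 tested cargo receptors and p24 proteins, 0 were called in either glyphosate comparison. On high and low concentrate 5 and 10 of 16 had a log2 fold change above 0, beside 51.5% and 49.4% of all genes. LMAN2L, a relative of LMAN1, was lowest on high concentrate at −0.20 (edgeR unadjusted p = 0.0483, adjusted p = 1), and TMED3 was highest at 0.19, and at −0.025 without GLY_HC cow 152. On low concentrate TMED2 was highest at 0.21 and ERGIC1 lowest at −0.097.

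The COPI coat and retrieval genes, which return receptors to the endoplasmic reticulum, lay above 0 in 13 of 14 cases on high and 12 of 14 on low concentrate. Over all genes the shares above 0 were 51.5% and 49.4%. The medians of this list were 0.13 and 0.16, and 0 were called, beside 0% and 0.0628% of all genes. ARCN1, COPA and COPB1 ran closely with SEC24A over the cows, so these genes are not independent of each other. KDELR3, a receptor that retrieves resident proteins, was highest in both, at 0.29 (95% interval −0.074 to 0.66) and 0.31 (95% interval −0.071 to 0.69). KDELR1 was lowest on high concentrate at −0.02 and COPZ2 on low concentrate at −0.10. Of 11 tethers and fusion factors 6 and 10 lay above 0 and 0 were called, with GOLGA2 highest (0.32) and YKT6 lowest (−0.09) on high concentrate, and GOSR2 highest (0.20) and RAB1B lowest (−0.003) on low concentrate.

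Genes on the transport, cargo and control lists were called by edgeR only between HC and LC over both treatments. They were 3 of the 65 tested (4.62%), beside 1.45% of all genes. GOSR2, a SNARE of vesicle fusion at the Golgi, was 94.4 ± 13.4 CPM in HC (SD, n = 16) and 74.1 ± 12.7 CPM in LC (SD, n = 15), and rose by a log2 fold change of 0.35 (95% interval 0.19 to 0.51, edgeR adjusted p = 0.0427). CTSC, a lysosomal protease listed as cargo, rose from 164 ± 50.1 CPM in LC (SD, n = 15) to 257 ± 70.5 CPM in HC (SD, n = 16), a log2 fold change of 0.64 (95% interval 0.35 to 0.93, edgeR adjusted p = 0.0391). HSPA5, the chaperone BiP of the endoplasmic reticulum, had 123 ± 35.2 CPM in HC and 230 ± 191 CPM in LC (SD, n = 16 and 15), with a log2 fold change of −0.90 (95% interval −1.40 to −0.39, edgeR adjusted p = 0.0918). Its LC cows ran from 101 over a median of 180 to 852 CPM. The call of HSPA5 lay close to the threshold and was lost in 19 of 37 alternatives, 17 of them by leaving out a single cow (adjusted p 0.0258 to 0.166 over the alternatives). The largest move came without GLY_LC cow 912, where the value was −0.56.

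The 6 tested cargo genes, besides F5, F8 and CTSC, held SERPINA1, for alpha-1-antitrypsin, which was lowest on low concentrate at −0.14, and −0.035 without GLY_LC cow 912. Of the 6, 5 lay above 0 on high and 3 on low concentrate, beside 51.5% and 49.4% of all genes. For glyphosate 0 were called. The control list held factors known to control COPII genes and also HSPA5, which is a chaperone. Of its 6 genes, 2 and 4 lay above 0 and 0 were called for glyphosate. XBP1, a transcription factor of the unfolded protein response, was highest on low concentrate, with 119 ± 39.1 CPM in CON_LC (SD, n = 8) and 230 ± 256 CPM in GLY_LC (SD, n = 7). Its log2 fold change was 0.95 (95% interval 0.21 to 1.68, edgeR unadjusted p = 0.0135, adjusted p = 0.709) and 0.18 without cow 912. CREB3L1 was lowest at −0.28. On high concentrate CREB3L3, a liver-enriched factor, was highest at 0.33 and HSPA5 lowest at −0.17.

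Total reads assigned to genes were 11675775 to 36675542 per cow (median 19781078), and the lowest raw count of any member was 191 (SEC23B). Hepatocyte markers summed to between 106140 and 211010 CPM per cow. Summed Kupffer cell and macrophage markers (6 of 6 measured) lay between 352 and 601 CPM, endothelial markers (6 of 6) between 236 and 426, lymphocyte markers (6 of 6) between 11.5 and 50.5, and bile duct markers (4 of 5) between 17.4 and 57.9. Stellate cell and fibroblast markers (6 of 6) lay between 92.7 and 399 CPM except in CON_LC cow 103 with 1645 CPM, a cow that was highest of its group for 0 members and lowest for 1. In the glyphosate comparisons edgeR called 0 genes of these lists apart from the intestinal list, with 3 of 5 called higher in GLY_LC than in CON_LC (0.0628% of all genes called). Between HC and LC (1.45% of all genes), 1 of 6 macrophage genes was called higher, and 1 of 6 stellate and 4 of 5 intestinal genes lower. All 6 stellate genes were below 0 there (median −0.86), 5 at an unadjusted edgeR p below 0.05, against 13.7% of all genes. That comparison includes CON_LC cow 103, and stellate values without this cow are not given here. Between GLY_HC and GLY_LC (0.201% of all genes called), 1 of 6 stellate and 4 of 5 intestinal genes were called lower. Without cow 912 only 1 of the 5 intestinal genes passed the filter on low counts, and 0 were called in any of these comparisons.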

How the data were processed

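Poly(A) RNA of 31 liver biopsies was sequenced with a stranded kit. Per the labels and the study's methods, the authors trimmed reads with Trim Galore, aligned them to UMD3.1 with HISAT2 2.1.0 and assigned the reads with a unique position to genes with HTSeq 0.8.0. Whether HTSeq used the strand is not given in the sources used here. The authors deposited raw counts, which were used, and a table normalized with DESeq2 1.20.0, which was not used. Groups came from the treatment and feed labels, and no batch is labelled.

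Genes with at least 20 reads over all cows were fitted with edgeR 4.0.16 (TMM, quasi-likelihood, R 4.3.3) in 1 model of 4 groups on all 31 cows, or in an additive model for the effects over both levels of the other factor. Adjusted p-values are Benjamini-Hochberg over 15916 genes. The standard error is the size of the log2 fold change over the square root of F. DESeq2 1.42.0, other normalizations and filters, a robust fit, fits of only the compared groups and leaving out each cow were alternatives. The fit was tested on simulated data. The 105 pairs of cows within groups all differed beyond sampling noise (chi-square per gene 24.5 to 487).

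The members and lists were chosen with earlier results of these data known. Named were all members, list genes called in any comparison or with the largest change either way in a glyphosate comparison, F5 and F8, and the 5 highest and 3 lowest correlations with MCFD2. Correlations used log2 CPM with a prior count of 2. The listed genes correlated with MCFD2, the genes correlated with SEC24A and LMAN1, and the set of 6 members were named after their values were seen. MIA2, SOX9 and CDX2 were listed but had no row, and 1 listed gene is not reported here. Levels were not compared between genes, since no transcript lengths were at hand.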

Additional observations from a re-analysis of the deposited data

Results flagged for a closer look

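Of 44 groups of cows examined (11 genes, with F5 and F8, in 4 feeding groups), 4 held a cow far from the others by Dixon's test (9.09%), where chance gives about 5%, or 1 in 20. In CON_HC the highest cow, 134, had 134 CPM of SEC24A (next 55.4 CPM), 69.9 CPM of SEC24D (next 30.7 CPM) and 59.8 CPM of SAR1B (next 43.3 CPM). These 3 values come from 1 library and are not independent. In GLY_LC, cow 912 had 56.0 CPM of SEC23B (next 24.2 CPM). The values without these cows stand beside the results.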

How the results depend on the processing

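No paired analysis was possible because the replicate numbers are animal numbers, none of which is shared between groups. All 7 counts of members called stayed at 0 in every alternative run. They were counts over the members chosen by function, and only that of GLY_LC against CON_LC also held MCFD2. Of 59 log2 fold changes, 45 kept their sign and 14 did not (9 of 29 of members), each of the 14 when a cow was left out. For members other than MCFD2, the 59 held only GLY against CON at each concentrate level and HC against LC. Values outside the 59 turned too. Without GLY_LC cow 912, SEC23B was 0.042 in the interaction and 0.0083 in GLY_HC against GLY_LC. With each cow left out in turn, the values of GLY_LC against CON_LC ranged from −0.068 to 0.040 (LMAN1), −0.033 to 0.15 (SEC23A), −0.0041 to 0.41 (SEC23B), −0.14 to 0.0023 (SEC24C), −0.099 to 0.18 (SEC24D), −0.18 to 0.00064 (COPZ2) and −0.044 to 0.016 (RAB1B). Those of HC against LC ranged from −0.045 to 0.039 (SEC23A), −0.040 to 0.17 (SEC24A), −0.0096 to 0.064 (SEC24C) and −0.17 to 0.043 (SEC24D). Those of GLY_HC against CON_HC ranged from −0.025 to 0.30 (TMED3), −0.062 to 0.0047 (KDELR1) and −0.055 to 0.096 (F5). RAB1B was also 0.0022 in edgeR on only the compared groups. HSPA5 (HC against LC) was no longer called without a filter on low counts (adjusted p = 0.103), in the robust fit (adjusted p = 0.103) and without each of 17 cows. The r of MCFD2 with LMAN1 lay between 0.20 and 0.36 without each cow. Counts over all genes moved more. In GLY_LC against CON_LC (10 called) they ran from 0 to 10 over the other alternatives and from 0 to 41 without single cows. In GLY_HC against GLY_LC (32 called) they ran from 0 to 143 and from 0 to 150, in HC against LC (231 called) from 134 to 434 and from 83 to 404, and in CON_HC against CON_LC (0 called) from 0 to 80 and from 0 to 7. The causes were not tested.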
